A study of Mus musculus with 8 samples.

Results

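The constitutive proteasome genes were followed in mouse macrophages across LPS treatment, loss of CD14 and calcium chelation. A gene was included if its symbol starts with Psma, Psmb, Psmc, Psmd, Psme, Psmf or Psmg, except for the interferon-inducible genes Psmb8, Psmb9, Psmb10, Psme1 and Psme2, and 44 of the 12394 genes named on the array met this rule. Of these, 32 encode subunits of the core particle and its cap, namely 8 alpha and 7 beta subunits of the 20S core, and 6 ATPases and 11 non-ATPase subunits of the 19S cap. A further 3 encode chaperones of the 19S cap, 3 an activator or inhibitor of the core, and 4 chaperones of core assembly. The remaining 2, Psmc3ip, a meiotic recombination factor, and Psme3ip1, a protein that binds the PA28 gamma activator, share only the name prefix and are not subunits.

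The proteasome is the protease that degrades ubiquitin-tagged proteins. Its barrel-shaped core has outer rings of alpha subunits, which control entry, and inner rings of beta subunits, of which Psmb5, Psmb6 and Psmb7 carry the chymotrypsin-like, caspase-like and trypsin-like sites. A cap binds, unfolds and feeds in the substrate. In macrophages, interferon induces Psmb8, Psmb9 and Psmb10, which take the places of Psmb5, Psmb6 and Psmb7 in newly built cores and alter the peptides made for antigen presentation.

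All cells were macrophages grown from bone marrow of mice aged 6 to 8 weeks, by 7 days of culture with M-CSF and 10% serum. The CD14-deficient groups came from Cd14-/- mice on C57BL/6 and were harvested unstimulated (0 h) or after LPS for 6 h or 24 h. Wild-type C57BL/6 cells received LPS with EGTA, a chelator of extracellular calcium, for 6 h or 24 h, and the EGTA dose, 2 mM, is labelled for 24 h alone. The other wild-type groups were unstimulated or had LPS without EGTA for 6 h or 24 h. LPS, a component of bacterial outer membranes that signals through TLR4 with the help of CD14, was given at 1 µg/ml, and the labels call it smooth for wild-type cells. No array held EGTA without LPS, and unstimulated cells were harvested 24 h after plating. According to the series' text, the conditions were chosen to separate calcium-dependent effects of LPS from others.

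Each of the 8 groups was measured on 1 array, so no difference below has a replicate check and no test or error can be given. Values are quantile-normalised intensities with a floor at 38.4. A comparison needed at least 1 of its arrays above 88.2, the median over all values, and genes were counted at a 1.5-fold and a 2-fold difference between the arrays. Macrophage markers were measured for 6 of 6 genes, with summed intensities of 36612 to 47562 over the arrays, while 12 of 16 measured markers of other blood and stromal cells lay at the floor on all arrays. The exceptions were S100a8, of neutrophils, with intensities of up to 507, Cd4, and low Mpo and Elane. Cd14 was at the floor in all 3 arrays labelled CD14-deficient and between 3849 and 12515 in the wild-type arrays. In RNA from whole cultures, fewer cells of a type and less RNA per cell cannot be told apart.

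The proteasome genes were strongly expressed. In all, 42 of 44 exceeded the median intensity on every array, and the geometric mean over the arrays ran up to 6619 for Psma6. The others were Psmc3ip and Psma8, a testis-specific alpha subunit with a mean of 46.7. The share of all genes above that median on every array was not computed. On at least 1 array 7292 of 12394 genes exceeded it, each by its brightest probe set. Over all 8 arrays the highest value exceeded the lowest by 1.22-fold for the ATPase Psmc3 and by 1.24-fold for both the deubiquitinase Psmd14 and the activator Psme3, and by 4.13-fold for Psmd10, which had the widest range. In at least 1 of the 9 comparisons 23 genes differed 1.5-fold, and 21 did so in none. This count used no intensity filter and was not made over all genes, so it has no background share beside it.

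**Figure D1:**
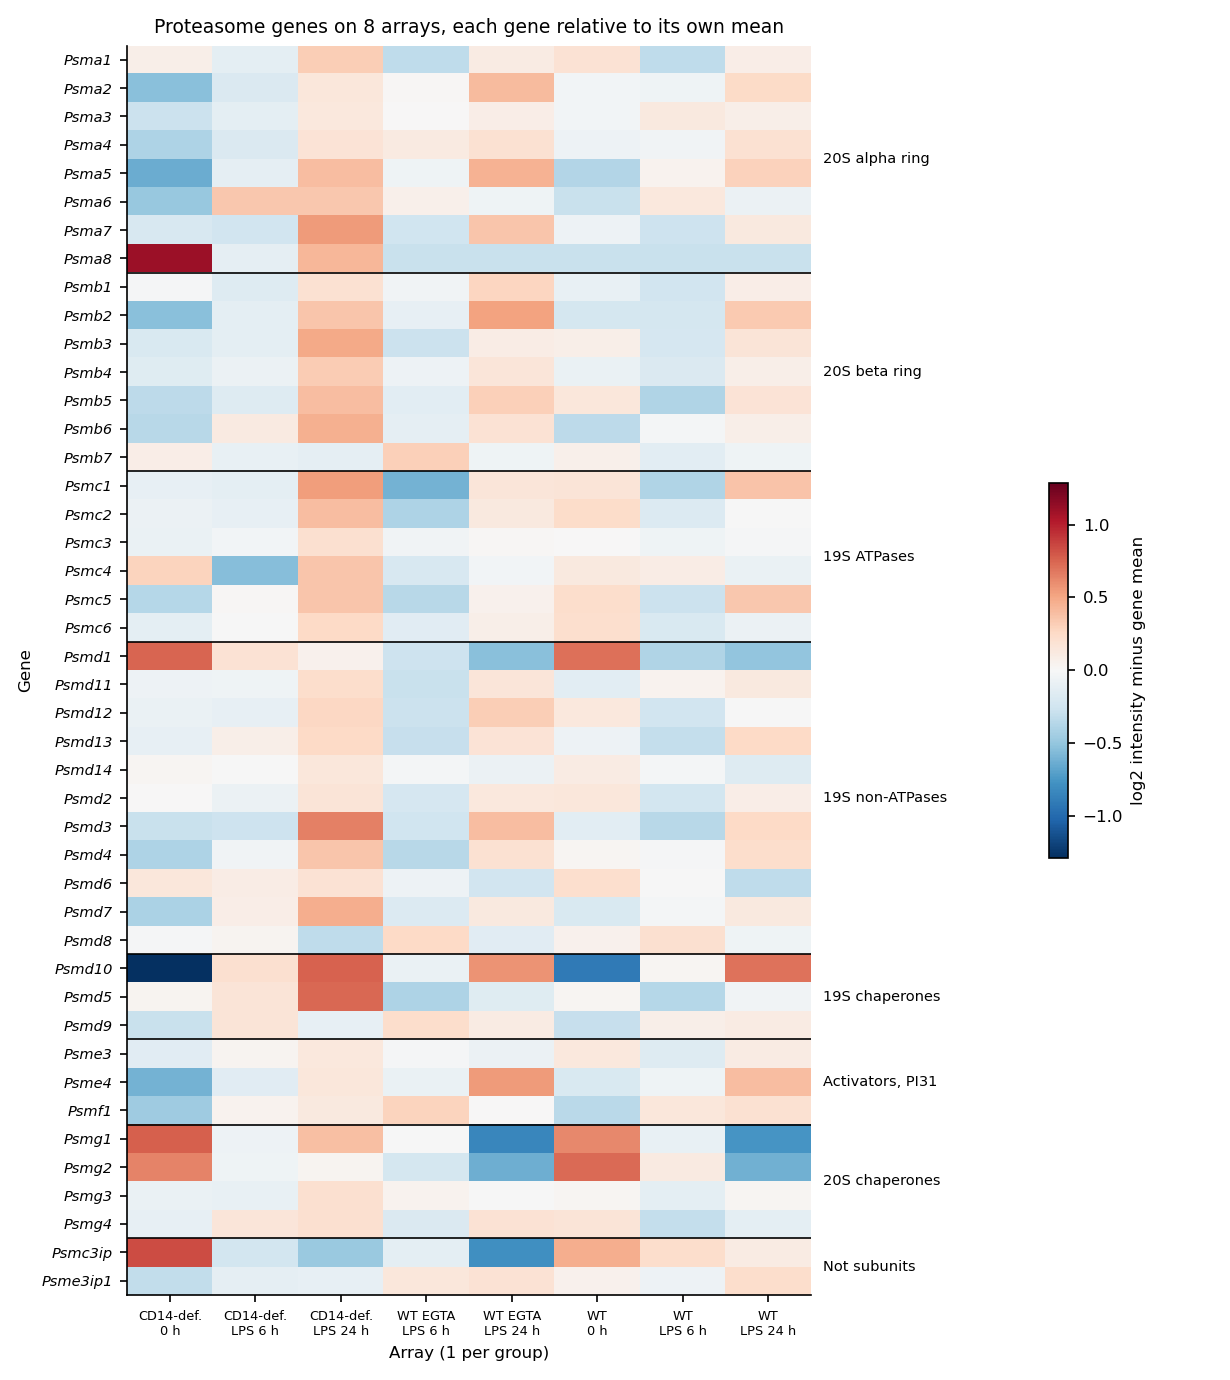
Log2 intensity of each of the 44 genes on each of the 8 arrays (1 per group), minus the gene's own mean, with genes grouped by sub-complex and colour from lower (blue) to higher (red). In the CD14-deficient LPS 24 h column 25 of 44 genes have their highest value, against 11.2% of all genes. With the arrays scaled to equal medians it is 7 of 44, against 10.2%. Psmd1, Psmg1 and Psmg2 are highest in an unstimulated column.

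After 24 h of LPS many proteasome genes were higher than on the unstimulated array in CD14-deficient cells, and few were in wild-type cells. The 17 such genes in CD14-deficient cells came from the core (Psma2, Psma5, Psma6, Psma7, Psmb2, Psmb3, Psmb5, Psmb6), the cap (Psmc1, Psmc5, Psmd3, Psmd4, Psmd7), its chaperones (Psmd5, Psmd10) and the regulators Psme4 and Psmf1. Of 44 genes in CD14-deficient cells, 17 passed 1.5-fold upward, against 15.5% of all genes compared, and 4 passed it downward, against 17.7%. Of these 4, Psma8 and Psmc3ip passed the filter only through their 0 h values of 100.4 and 142.2. Without them and Psme3ip1, 2 genes were lower. Psma5 and Psmd10 also passed 2-fold upward (8.29% of all genes) and Psmc3ip downward (8.77%). The median log2 difference of the 44 genes was 0.37, beside -0.04 over all genes. Of 43 genes in wild-type cells, Psmd10, Psma5 and Psme4 passed 1.5-fold upward and Psmg1, Psmg2 and Psmd1 downward, against 18.9% and 21.8% of all genes. At 2-fold this left Psmd10 upward (10.6%) and the same 3 downward (10.7%). Here the median was 0.11, beside -0.07 over all genes. Scaling the arrays to equal medians instead gave 22 higher genes in CD14-deficient cells, against 15 in wild-type cells, and the deposited intensities gave 14 and 1. The all-gene medians were then 0.13 and 0.12 with equal medians, and -0.20 and -0.66 with the deposited intensities. Shares of all genes past 1.5-fold were not computed under these scalings, so the counts have no background beside them.

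Relative to the median of all genes, which itself moved with the scaling, the CD14-deficient median at 24 h lay 0.35 to 0.50 higher on the log2 scale over all settings, and the wild-type median 0.10 to 0.39 higher. Under each of the 3 scalings, 37 of 44 genes lay above the all-gene median in CD14-deficient cells and 6 below, and 26 above and 6 below in wild-type cells. This tally used no intensity filter, so it includes Psma8, which was at the floor in every wild-type array. It was not made over all genes, so it has no background share beside it.

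At 6 h fewer genes stood apart. In CD14-deficient cells Psmd10 and Psma6 were at least 1.5-fold higher and Psmc4, Psmg1, Psmg2, Psma8 and Psmc3ip lower. Thus 2 of 44 were higher, against 16.3% of all genes, and 5 lower, against 21.2%. Psmc4 counts as lower by the probe set used alone, and its second probe set gave 0.51 on the log2 scale. At 2-fold there were Psmd10 upward (10.3%) and Psma8 and Psmc3ip downward (8.99%). Psma8 and Psmc3ip passed the filter only through their 0 h values of 100.4 and 142.2, so only a decrease could be called. Without them and Psme3ip1, 3 genes were 1.5-fold lower. In wild-type cells Psmd10 alone of 43 was higher and Psmd1, Psmg1 and Psmg2 were lower, where 17.4% of all genes were higher and 21.0% lower. There 0 genes passed 2-fold upward (10.5%), and Psmd1 passed it downward (9.5%). These wild-type calls rest on the probe sets used. A second Psme4 probe set gave 0.88 on the log2 scale, beside 0.14 for the one used, and a dimmer Psma6 probe set 1.13, beside 0.43. The medians were 0.08 in CD14-deficient and -0.15 in wild-type cells, beside -0.13 and -0.12 over all genes. The sign of both medians depended on the scaling.

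**Figure D2:**
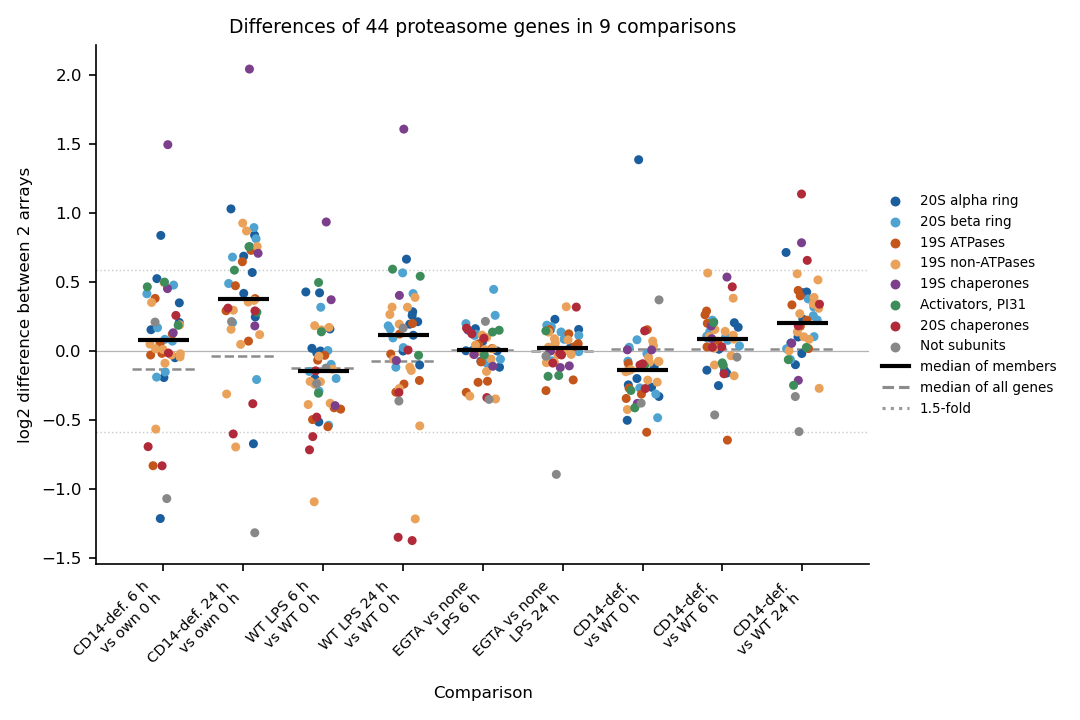
Log2 difference between 2 arrays for each of the 44 proteasome genes (points, dim values included) in the 9 comparisons, with the median of the proteasome genes as a solid bar and the median of all genes compared as a dashed line. The EGTA comparisons have medians of 0.01 and 0.02, and the points spread most for LPS 24 h.

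Promoter sequence is shown for 5 genes that carry the results: Psmd10, the widest range; Psma5, the alpha subunit with the largest 24 h difference; the catalytic Psmb5; and Psmd1 and Psmg1, which were lower after LPS. Each is the 250 bases before the annotated start, 5′ to 3′, from RefSeq on GRCm38.p6. Capitals mark the motifs searched on both strands. They are the CCAAT box, the GC box GGGCGG, the ETS site CCGGAAG, the antioxidant response element core TGACNNNGC and the inverted repeat TTCNNNGAA.
Psmd10, chrX:140956712-140956961, minus strand: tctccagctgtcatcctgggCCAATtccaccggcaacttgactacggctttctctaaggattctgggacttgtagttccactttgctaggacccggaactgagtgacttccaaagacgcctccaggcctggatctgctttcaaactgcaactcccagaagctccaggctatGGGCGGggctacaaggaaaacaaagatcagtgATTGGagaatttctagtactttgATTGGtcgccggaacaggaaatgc
Psma5, chr3:108256676-108256925, plus strand: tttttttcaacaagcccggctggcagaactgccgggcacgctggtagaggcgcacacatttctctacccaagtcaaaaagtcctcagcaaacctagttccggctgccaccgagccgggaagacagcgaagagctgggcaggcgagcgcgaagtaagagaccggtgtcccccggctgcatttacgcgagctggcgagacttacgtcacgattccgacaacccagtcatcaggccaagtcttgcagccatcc
Psmb5, chr14:54617996-54618245, minus strand: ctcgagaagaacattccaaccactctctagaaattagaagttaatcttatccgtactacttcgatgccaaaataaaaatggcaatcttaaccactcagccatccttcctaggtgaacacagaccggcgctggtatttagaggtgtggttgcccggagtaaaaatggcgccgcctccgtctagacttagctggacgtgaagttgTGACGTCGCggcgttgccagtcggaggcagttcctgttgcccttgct
Psmd1, chr1:86064369-86064618, plus strand: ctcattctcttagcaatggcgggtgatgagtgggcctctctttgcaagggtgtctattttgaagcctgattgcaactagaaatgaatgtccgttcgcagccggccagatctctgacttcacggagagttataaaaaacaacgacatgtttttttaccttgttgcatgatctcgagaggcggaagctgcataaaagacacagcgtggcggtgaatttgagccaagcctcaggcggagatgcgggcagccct
Psmg1, chr16:95990961-95991210, minus strand: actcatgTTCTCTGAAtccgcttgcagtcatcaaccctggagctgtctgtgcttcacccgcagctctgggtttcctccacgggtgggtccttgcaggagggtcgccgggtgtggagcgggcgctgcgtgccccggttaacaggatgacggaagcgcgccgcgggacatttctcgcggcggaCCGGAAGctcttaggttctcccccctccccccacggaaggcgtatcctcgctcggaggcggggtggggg

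Windows were found for 36 of the 44 genes, 39 in all. The ETS site was in 35.9% of these windows, against 6.91% of all 32851 windows and 10.9% of the 12450 windows of protein-coding genes on the array. The GC box was in 51.3%, against 51.4% of those on the array, and CCAAT in 35.9%, against 34.7%. The antioxidant core was in 12.8%, against 11.3%, and the inverted repeat TTCNNNGAA in 2.56%, against 6.02%. Psmd10 held CCAAT in either orientation and a GC box, Psmb5 the antioxidant core, and Psmg1 an ETS site and the inverted repeat TTCNNNGAA. Psma5 and Psmd1 held none of the 5 motifs. A match describes the letters alone, not binding.

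Among the alpha subunits, Psma5 differed most at 24 h. It had intensities of 2892, 4162 and 5910 at 0, 6 and 24 h in CD14-deficient cells, 4320 and 6123 at 6 and 24 h with EGTA, and 3471, 4650 and 5508 at 0, 6 and 24 h in wild-type cells without EGTA. Both unstimulated arrays were the lowest, and the 24 h arrays the highest. Its 24 h level was 2.04-fold that at 0 h in CD14-deficient cells, against 1.59-fold in wild-type cells.

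Psma6 had 4716, 8434 and 8446 at 0, 6 and 24 h in CD14-deficient cells, 6927 and 6388 with EGTA, and 5417, 7291 and 6278 in wild-type cells. It was 1.79-fold higher in CD14-deficient cells at both LPS times, and highest there of all arrays. A second bright probe set of Psma6 had 7909 at 24 h and 4434 at 0 h in CD14-deficient cells.

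Of the other alpha subunits, Psma2 and Psma7 were 1.61-fold and 1.69-fold higher at 24 h in CD14-deficient cells, while Psma1, Psma3 and Psma4 stayed under 1.5-fold in every comparison. Psma8 had 100.4, 43.2 and 63.0 at 0, 6 and 24 h in CD14-deficient cells and was at the floor in every wild-type array, so that it was at least 2.62-fold higher in CD14-deficient cells at 0 h. These values are dim, and no detection call was at hand. The median of the alpha subunits at 24 h against 0 h was 0.63 in CD14-deficient cells, against 0.21 in wild-type cells.

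The catalytic beta subunits did not move alike. Psmb5 had 1974, 2220 and 3285 at 0, 6 and 24 h in CD14-deficient cells, 2275 and 3092 with EGTA, and 2762, 1901 and 2810 in wild-type cells. In CD14-deficient cells the 24 h level was 1.66-fold that at 0 h, while the wild-type levels at these times differed by 0.02 on the log2 scale and the 6 h level was lower by 1.45-fold. Psmb6 had 3747, 5220 and 6590 in CD14-deficient cells, 4455 and 5482 with EGTA, and 3798, 4733 and 5070 in wild-type cells. Its levels were higher with LPS in both genotypes, by 1.76-fold at 24 h in CD14-deficient cells.

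Psmb7 had 4248, 3726 and 3681 in CD14-deficient cells, 4950 and 3829 with EGTA, and 4169, 3631 and 3843 in wild-type cells. Its LPS-treated levels without EGTA were slightly below the unstimulated ones in both genotypes, which turned under equal medians (at 24 h, CD14-deficient 0.12, wild type 0.39, on the log2 scale), and the EGTA 6 h array was the highest. Psmb2, a structural beta subunit, had 1012, 1349 and 1882 in CD14-deficient cells, 1370 and 2103 with EGTA, and 1256, 1259 and 1860 in wild-type cells. It was 1.86-fold higher at 24 h in CD14-deficient cells, and Psmb3 was 1.60-fold higher, while Psmb1 and Psmb4 stayed under 1.5-fold in every comparison. The median of the beta subunits at 24 h was 0.68 in CD14-deficient cells, against 0.16 in wild-type cells.

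The inducible subunits moved by more than the constitutive ones they replace. For Psmb9 the log2 difference between 24 h and 0 h exceeded that of Psmb6 by 1.95 in CD14-deficient cells and by 1.49 in wild-type cells. For Psmb10 the excess over Psmb7 was 2.75 in CD14-deficient cells, against 1.60 in wild-type cells, and for Psmb8 over Psmb5 it was 1.57 and 0.99. In unstimulated cells the inducible genes were lower in the CD14-deficient array. Psmb8, Psmb9 and Psmb10 had 1392, 628 and 1059 in CD14-deficient cells and 3880, 1904 and 2655 in wild-type cells, while Psmb6 and Psmb7 differed by at most 0.03 on the log2 scale and Psmb5 differed by -0.48. Psme2 shares its probe set with another gene and was not used.

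**Figure D3:**
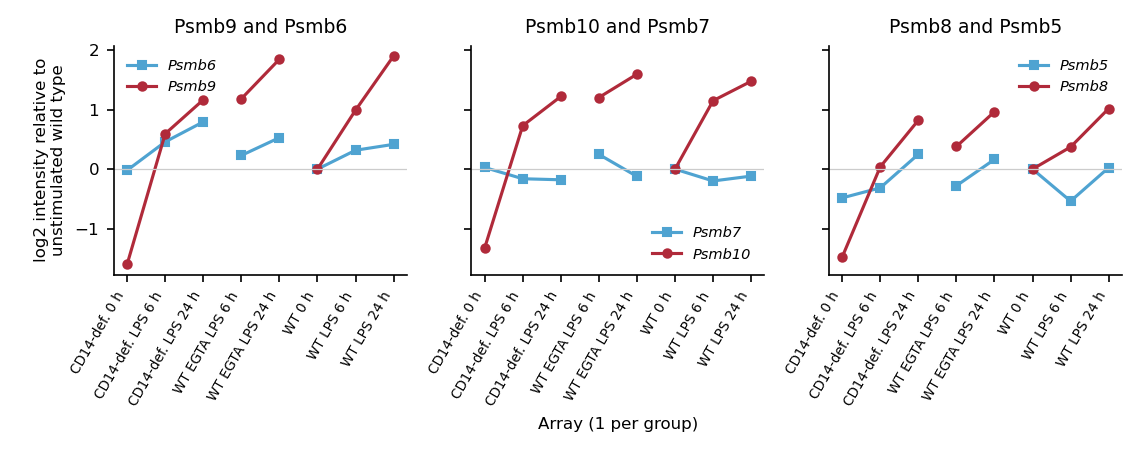
Log2 intensity, relative to the gene's own level in unstimulated wild-type cells, of each catalytic subunit (squares) and its interferon-inducible counterpart (circles) over LPS time in CD14-deficient, EGTA-treated and wild-type cells (1 array per point). Inducible genes climb steeply from their low CD14-deficient 0 h values of 1392, 628 and 1059, whereas Psmb7 has 4248, 3726 and 3681 at 0, 6 and 24 h in CD14-deficient cells.

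The 6 ATPases thread substrate into the core. Psmc5 had 1154, 1504 and 1914 at 0, 6 and 24 h in CD14-deficient cells, 1164 and 1550 with EGTA, and 1736, 1230 and 1891 in wild-type cells. The lowest value was that of unstimulated CD14-deficient cells, -0.59 on the log2 scale against unstimulated wild-type cells, and both genotypes were nearly level at 24 h. Psmc1 was 1.57-fold and Psmc5 1.66-fold higher at 24 h in CD14-deficient cells. Psmc4 had 2919, 1640 and 3068 in CD14-deficient cells, 2085 and 2348 with EGTA, and 2623, 2567 and 2262 in wild-type cells, with the CD14-deficient 6 h array lowest. A second Psmc4 probe set went the other way at 6 h, with 1105, 1570 and 1964 in CD14-deficient cells and 1467, 1285 and 1322 in wild-type cells, so no direction is given for this gene. Psmc2, Psmc3 and Psmc6 stayed under 1.5-fold in every comparison. The ATPases had a 24 h median of 0.43 in CD14-deficient cells, against -0.12 in wild-type cells.

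Of the non-ATPase subunits, Psmd1, a scaffold of the cap base, was lower after LPS. It had 5289, 3572 and 3265 at 0, 6 and 24 h in CD14-deficient cells, 2614 and 2174 with EGTA, and 5150, 2413 and 2214 in wild-type cells. Both unstimulated arrays were above all 6 arrays with LPS. The LPS-treated level was lower by 1.48-fold at 6 h and 1.62-fold at 24 h in CD14-deficient cells, and by 2.13-fold and 2.33-fold in wild-type cells.

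Psmd3, a lid subunit, went the other way. It had 492, 498 and 936 in CD14-deficient cells, 502 and 787 with EGTA, and 546, 469 and 715 in wild-type cells. All 24 h arrays were above all others, and the 24 h level was 1.90-fold that at 0 h in CD14-deficient cells. In wild-type cells its log2 difference at 24 h was 0.39, and -0.20 with the deposited intensities. The lid subunit Psmd7 and the ubiquitin receptor Psmd4 were 1.83-fold and 1.69-fold higher at 24 h than at 0 h in CD14-deficient cells. Psmd14, the subunit that removes ubiquitin chains from the substrate, had 2953, 2895 and 3207 in CD14-deficient cells, 2845 and 2753 with EGTA, and 3126, 2853 and 2587 in wild-type cells. It stayed under 1.5-fold in every comparison, as did Psmd2, Psmd6, Psmd8, Psmd11, Psmd12 and Psmd13. The 11 non-ATPase subunits had a 24 h median of 0.30 in CD14-deficient cells, against -0.06 in wild-type cells.

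For Psmd6, a lid subunit, the probe sets disagreed between genotypes. The probe set used gave 2813, 2731 and 2909 at 0, 6 and 24 h in CD14-deficient cells and 2964, 2540 and 2034 in wild-type cells. The second gave 171.8, 171.0 and 168.8 in CD14-deficient cells and 2516, 2177 and 1380 in wild-type cells. Its log2 differences between CD14-deficient and wild-type cells were -3.87, -3.67 and -3.03, beside -0.08, 0.10 and 0.52 for the probe set used.

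Psmd10, or gankyrin, a chaperone of the ATPase ring, had the largest difference of all 44 genes. Its intensities were 506, 1427 and 2087 at 0, 6 and 24 h in CD14-deficient cells, 1166 and 1848 with EGTA, and 658, 1259 and 2008 in wild-type cells. The ranges at 0, 6 and 24 h did not overlap across genotypes and EGTA. The level at 6 h and 24 h was 2.82-fold and 4.13-fold that at 0 h in CD14-deficient cells, and 1.91-fold and 3.05-fold in wild-type cells. Under the 3 scalings the 24 h log2 difference ran from 1.82 to 2.13 in CD14-deficient cells and from 1.16 to 1.91 in wild-type cells. Psmd5, another cap chaperone, had 614, 673 and 1004 in CD14-deficient cells, 456 and 540.5 with EGTA, and 611, 464 and 582 in wild-type cells. It was 1.72-fold higher in CD14-deficient than wild-type cells at 24 h, and highest there of all arrays. Psmd9, the remaining cap chaperone, stayed under 1.5-fold in every comparison.

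The activator Psme4, or PA200, had 779, 1076 and 1317 at 0, 6 and 24 h in CD14-deficient cells, 1120 and 1732 with EGTA, and 1037, 1142 and 1565 in wild-type cells. It was higher at 24 h in both genotypes, by 1.69-fold in CD14-deficient and 1.51-fold in wild-type cells. Psme3, the PA28 gamma activator, had 339, 386 and 412 in CD14-deficient cells, 372 and 358 with EGTA, and 414, 335 and 405 in wild-type cells. Psmf1, or PI31, was higher at 24 h by 0.59 on the log2 scale in CD14-deficient cells and by 0.54 in wild-type cells, and the wild-type direction turned with the deposited intensities (-0.15 on the log2 scale). A dimmer Psmf1 probe set had 169.1 at 24 h and 184.7 at 0 h in CD14-deficient cells, and 161.3 and 191.3 in wild-type cells, so the probe sets disagree.

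The paired chaperones Psmg1 and Psmg2, which act together in alpha ring assembly, were lower after LPS, most so in wild-type cells at 24 h. Psmg1 had 588, 330 and 451 at 0, 6 and 24 h in CD14-deficient cells, 345 and 193 with EGTA, and 531, 323 and 205 in wild-type cells. At 24 h its level was 2.20-fold higher in CD14-deficient than in wild-type cells, while the genotypes were within 0.15 on the log2 scale at 0 and 6 h. Psmg2 had 910, 563 and 600 in CD14-deficient cells, 499 and 376 with EGTA, and 970, 631 and 380 in wild-type cells. It was 1.58-fold higher in CD14-deficient than in wild-type cells at 24 h. Against 0 h, the wild-type 24 h level was lower by 2.59-fold for Psmg1 and 2.55-fold for Psmg2. The assembly chaperones Psmg3 and Psmg4 stayed under 1.5-fold in every comparison.

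Of the genes that are not subunits, Psmc3ip had 142.2, 67.7 and 57.0 at 0, 6 and 24 h in CD14-deficient cells, 73.2 and 46.0 with EGTA, and 109.9, 93.4 and 85.5 in wild-type cells. The unstimulated arrays were the highest and several values neared the floor. Psme3ip1 stayed under 1.5-fold in every comparison.

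Few of all genes passed 1.5-fold with EGTA, and the proteasome gene counts were near those small shares. At 6 h 0 of 43 genes reached 1.5-fold upward, against 2.74% of all genes, and 0 downward, against 2.46%. At 24 h 0 of 42 did so upward, against 4.52%, and 0 downward, against 4.56%. For 2-fold, likewise reached by 0, the shares of all genes were 0.549% and 0.267% at 6 h and 1.02% and 1.11% at 24 h. The differences ran from -0.35 for Psmc3ip to 0.45 for Psmb7 at 6 h and from -0.29 for Psmc5 to 0.32 for Psmd12 at 24 h. Of all genes compared, the central 95% lay between -0.58 and 0.60 at 6 h and between -0.74 and 0.75 at 24 h. With the deposited intensities, where the EGTA 6 h array was dimmer throughout, the median of all genes was -0.78 and 36 of the proteasome genes passed 1.5-fold downward. Their median of -0.75 lay close to that of all genes, and Psmb7 lay below 0 (-0.20).

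Before LPS few of these genes passed 1.5-fold between CD14-deficient and wild-type cells, as among all genes. Most lay slightly lower in CD14-deficient cells relative to all genes. The median log2 difference was -0.14 over 44 genes, beside 0.02 over all genes. Of the 44, Psma8 was at least 1.5-fold higher, where 6.19% of all genes were, and Psmc5 lower, where 6.68% were. Psma8 was at the floor in wild-type cells and passed the filter only through its CD14-deficient value of 100.4. Without Psma8, Psmc3ip and Psme3ip1, 0 genes were higher. Under each of the 3 scalings, 35 of 44 genes lay below the all-gene median and 6 above. That tally used no intensity filter and was not made over all genes. Relative to all genes the median lay at -0.18 to -0.13 over all settings. At 6 h of LPS the median was 0.09, with none of 43 higher (7.53% of all genes) and Psmc4 lower (8.9%). The Psmc4 call rests on the probe set used, while its second probe set gave 0.29 on the log2 scale. A second Psme4 probe set gave -0.78, past 1.5-fold, beside -0.09 for the one used. At 24 h the median was 0.20, with Psmg1, Psmd5 and Psmg2 higher (14.2%) and none of 42 lower (14.1%). The 2-fold mark was passed upward by Psma8 at 0 h (1.4% of all genes), by 0 at 6 h (2.53%) and by Psmg1 at 24 h (5.21%), and downward by 0 at 0 h (3.2%), at 6 h (3.08%) and at 24 h (6.21%). The signs of the 6 h and 24 h medians depended on the scaling.

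The LPS difference of a gene in CD14-deficient cells can be set against its LPS difference in wild-type cells, since these rest on 4 separate arrays. Signed log2 differences were compared, so a smaller decrease counts as the higher value. At 24 h the CD14-deficient difference was the higher for 39 of 43 genes, against 55.2% of all genes, and by at least 1.5-fold for 11, against 15.0%. The 39 include Psmg1, Psmg2 and Psmd1, which were lower after LPS in both genotypes and by less in CD14-deficient cells. The median excess, CD14-deficient minus wild-type, was 0.39, beside 0.06 over all genes. At 6 h the CD14-deficient difference was higher for 35 of 43 genes, against 51.1%, and by at least 1.5-fold for 3, against 11.5%. The median excess was 0.29, beside 0.01 over all genes. Relative to all genes the excess was 0.24 to 0.28 at 6 h and 0.18 to 0.34 at 24 h under the 3 scalings, and 33 to 35 of 43 genes lay above the all-gene median. The unstimulated CD14-deficient array, which enters both times, held the lowest of the 8 values for 15 of 44 genes, against 18.3% of all genes. The count was 5 with the deposited intensities and 35 with equal medians, against 8.3% and 28.6% of all genes. The part that this array has in the excess was not tested.

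**Figure D4:**
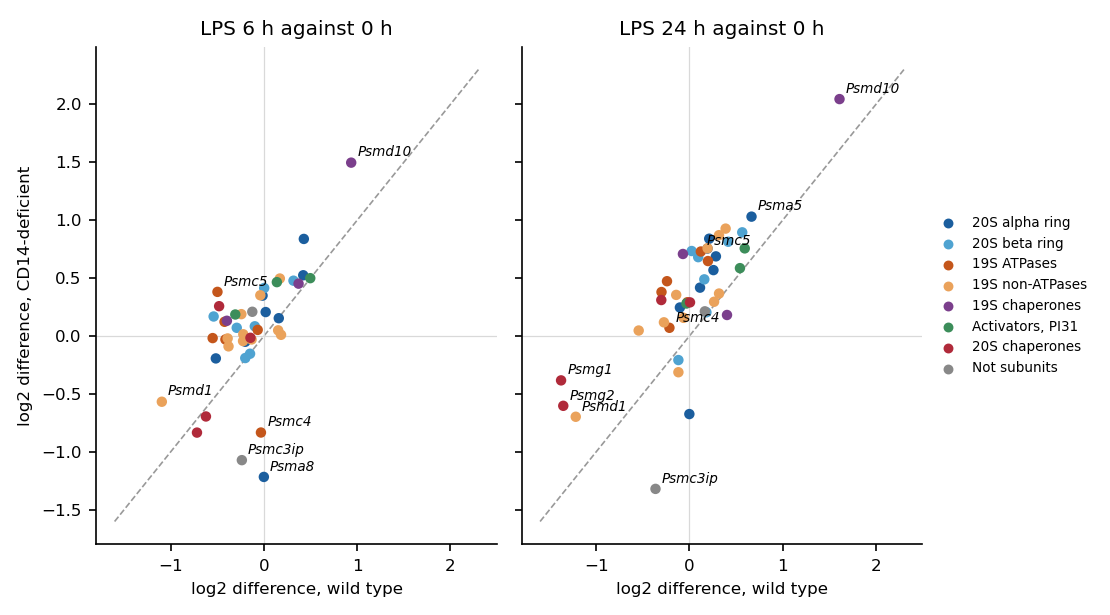
Log2 difference between LPS and 0 h for each proteasome gene in CD14-deficient cells (vertical axis) against wild-type cells (horizontal axis), at 6 h and 24 h, with the line of equality. At 24 h 39 of the 43 genes compared (all but Psma8) lie above the line, with Psmd10 at the far upper right and Psmg1 farthest to the left.

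The array on which a gene is highest was the CD14-deficient one with LPS for 24 h for 25 of 44 genes, against 11.2% of all genes. With the deposited intensities it was 18 of 44, against 9.43%, and with equal medians 7 of 44, against 10.2%. The count thus depends on the scaling.

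Among genes that act with the proteasome, Usp14, a deubiquitinase bound to the cap, was lower after LPS. It had 1990, 1365 and 1533 at 0, 6 and 24 h in CD14-deficient cells, 931 and 766 with EGTA, and 1782, 1005 and 651 in wild-type cells. The CD14-deficient level was 1.24 higher on the log2 scale at 24 h. Uchl5, the other cap-bound deubiquitinase of that list, had 1417, 749 and 831 in CD14-deficient cells and 1397, 863 and 629 in wild-type cells. Of the 7 proteasome-bound genes measured, 1 was 1.5-fold higher in CD14-deficient than wild-type cells at 24 h and none was lower, against 14.2% and 14.1% of all genes, so the share of higher genes was near the background. The ubiquitin shuttles and p97 with its cofactors had a median log2 difference of 0.45 in that comparison, with 8 of 8 above the all-gene median. Only Ubqln2 (0.61) of the 8 was 1.5-fold higher, against 14.2% of all genes, so this share too was near the background. These values were not recomputed under the other scalings.

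Nfe2l1, the transcription factor that induces proteasome genes when the protease is inhibited, had 627, 1201 and 867 at 0, 6 and 24 h in CD14-deficient cells, 1145 and 1297 with EGTA, and 658, 603 and 1023 in wild-type cells. The 6 h level in CD14-deficient cells exceeded wild type by 0.99 on the log2 scale, and that with EGTA by 0.92, both against the same wild-type array. Nfe2l2, the factor of the oxidative stress response, had 3097, 3764 and 2591 in CD14-deficient cells, 1721 and 3024 with EGTA, and 2776, 1266 and 2223 in wild-type cells. At 6 h it was 1.57 higher on the log2 scale in CD14-deficient than wild-type cells. Of 7 such regulators compared between genotypes at 6 h, 4 were at least 1.5-fold higher and 1 lower in CD14-deficient cells, against 7.53% and 8.9% of all genes. Maff, 1 of these 4, was dim, with 106.9 in CD14-deficient and 44.95 in wild-type cells at 6 h. It passed the filter only through its CD14-deficient value.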

How the data were processed

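RNA of 8 macrophage cultures was measured on 8 Affymetrix arrays, 1 per group, each from 0.3 µg of RNA with RNA integrity numbers of 9.3 to 9.7 and cRNA yields of 31.4 to 76 µg. The authors deposited linear intensities made with MAS5, per the submitters' processing notes, for 22690 probe sets. The MAS5 version, any scaling target and detection calls are not given in the sources used here. Array medians before normalisation lay between 55.9 and 119.0.

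Intensities were quantile-normalised over 8 arrays, raised to a floor at the 40th percentile and put on a log2 scale (Python 3.11.15, numpy 2.4.6, pandas 2.3.3). Quantile normalisation removes a shift shared by all genes. Gene names came from the platform annotation, and current symbols from the RefSeq table of GRCm38.p6, where 20364 of the 20393 single-gene probe sets matched. The 691 probe sets of several genes and the 1606 unlisted ones were left out. The probe set with the highest mean stood for a gene, and 21 of 44 genes had several, 81 in all.

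Comparisons required 1 array above 88.2, and calls were made at 1.5-fold and 2-fold. A fold against the floor is a bound. No test was possible. The number of arrays limits the precision. The counting was tested on simulated data. Alternatives were the deposited intensities, equal medians, no filter, the mean over probe sets and, added after the data were seen, leaving out Psma8, Psmc3ip and Psme3ip1. The genes and lists were chosen with earlier results of these data known. Named genes were the catalytic subunits, Psmd14, Psme3, Psme4, the members of each sub-complex with the largest differences, every member past 1.5-fold, and up to 3 genes of each related list.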

Additional observations from a re-analysis of the deposited data

Results flagged for a closer look

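The LPS 6 h difference of Psmc5, an ATPase of the 19S cap, was of opposite sign in the genotypes: CD14-deficient cells had 0.38 on the log2 scale and wild-type cells -0.50, a gap of 0.88. With 1 array per group, the difference between the genotypes was not tested. The signs were the same under the deposited intensities (0.14 and -0.39) and equal medians (0.67 and -0.17). The unstimulated CD14-deficient level of 1154 was the lowest of the 8 arrays, beside 1736 in unstimulated wild-type cells.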

How the results depend on the processing

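No paired analysis was possible because each group has 1 array and the labels carry no replicate numbers, and for the same reason no replicate could be left out. Members at least 1.5-fold apart and median log2 differences were recomputed, but not the shares of all genes past 1.5-fold. With the deposited intensities the medians were -0.27 for LPS 24 h in wild-type cells, -0.13 for LPS 6 h in CD14-deficient cells, -0.75 for EGTA at 6 h, 0.16 for EGTA at 24 h, -0.24 for CD14 deficiency at 6 h and 0.44 at 24 h. The corresponding all-gene medians were -0.66, -0.46, -0.78, 0.16, -0.27 and 0.43. The counts were 1 higher and 10 lower for wild-type LPS 24 h, 36 lower for EGTA at 6 h, 0 lower for CD14 deficiency at 0 h, 2 lower at 6 h and 11 higher at 24 h. With equal medians they were 4 higher for wild-type LPS 6 h, 15 higher for wild-type LPS 24 h, 13 higher and 3 lower for CD14-deficient LPS 6 h, 2 lower for CD14-deficient LPS 24 h, 1 higher for EGTA at 6 h, 2 lower for CD14 deficiency at 0 h and 1 lower at 24 h. The medians were 0.15 and 0.48 for wild-type LPS at 6 and 24 h, 0.40 and 0.61 for CD14-deficient LPS, and -0.25 and -0.072 for CD14 deficiency at 0 and 24 h. The mean over probe sets gave 2 lower for CD14 deficiency at 0 h, and 1 lower with a median of 0.10 at 24 h. Without the filter, 1 gene, Psmc3ip, was lower with EGTA at 24 h. Leaving out Psma8, Psmc3ip and Psme3ip1 gave 3 lower for CD14-deficient LPS 6 h, 2 lower at 24 h and 0 higher for CD14 deficiency at 0 h. Beyond these shifts of scale, the cause was not tested. The number of arrays and the dim values near the floor limit what can be read.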

Other observations

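The second probe set of Psmd6 was one of 2 among 4504 further probe sets above the median intensity whose CD14-deficient signal was at most 1 part in 4 of the wild-type signal at all 3 times while the brightest probe set of the gene stayed within 2-fold. The other belonged to Riok3, and 0 were at least 4-fold higher. These were chosen after their values were seen, and the cause was not tested. Of 22 further bright probe sets of 16 proteasome genes, 19 to 22 lay within 1.5-fold of the difference given by the probe set used, depending on the comparison.

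Uba7, the activating enzyme of the ubiquitin-like protein ISG15, had 308, 1445 and 2240 at 0, 6 and 24 h in CD14-deficient cells, 2418 and 3185 with EGTA, and 1133, 2354 and 3222 in wild-type cells. Its unstimulated level differed by -1.88 on the log2 scale between CD14-deficient and wild-type cells. Keap1, which holds Nfe2l2 inactive, had 442, 1138 and 1108 in CD14-deficient cells, 1352 and 1397 with EGTA, and 555, 1297 and 1476 in wild-type cells, so that both unstimulated arrays were the lowest.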
